A study of Homo sapiens with 12 samples.

Results

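Ribosome biogenesis factors are the proteins that transcribe, modify, cut and fold ribosomal RNA and load it with ribosomal proteins before the finished subunits leave the nucleus. A list of 43 such genes was followed through an array experiment in MDA-MB-231 cells, a triple-negative human breast cancer line, and 34 of the 43 were measured among 11963 genes. Each gene was taken from the probe set with the highest mean over the 12 arrays among those listed for that gene alone. NOP56, DKC1, BOP1 and PPAN had only probe sets that are listed for several genes, and NOP58, GNL3, DDX18, EBNA1BP2 and LYAR had no probe set listed for them, so these 9 were not analysed here. Cultures were treated for 24 h with 5 uM SAHA plus 2.5 mM pargyline, with 5 uM SAHA alone, with 2.5 mM pargyline alone, or with the vehicle DMSO, in 3 biological replicates per group. SAHA (suberanilohydroxamic acid, vorinostat) inhibits histone deacetylases, and pargyline is a monoamine oxidase inhibitor that has also been used against the histone demethylase LSD1. All 4 groups are the same cell line with no genetic change, and total RNA of each culture was labelled with biotin and hybridised to 1 Affymetrix array.

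Ribosome assembly begins in the nucleolus, where RNA polymerase I makes a long precursor that small nucleolar ribonucleoproteins modify and a succession of assembly factors cleaves and folds into the small (40S) and large (60S) subunits. The assembly factors are released and reused, unlike the ribosomal proteins, which stay in the ribosome. In growing tumour cells these genes are usually highly expressed, and many of them are textbook targets of the transcription factor MYC, which binds the E-box CACGTG together with its partner MAX.

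That E-box was looked for in the RefSeq promoter windows (GRCh38.p14, 250 bases before to 50 after the annotated start), which were given for 30 of the 34 measured genes. CACGTG reads the same on both strands, so 1 search covers both. A gene was counted once, as holding the E-box if any of its windows did. Genes with more than 1 window, as 6 of the 30 had, have more chances to hold it, and this was not adjusted for. The E-box was present in 15 of 30 genes (50%), against 1144 of 9562 genes tested (12%) and 2396 of 27305 genes with windows (8.77%). Within 40 bases before to 25 bases from the start it was present in 12 of 30 (40%), against 313 of 9562 genes tested (3.27%). A match is a string of letters, and whether MYC or any other protein binds there was not measured. For 8 of these 12 genes, chosen after their values were seen, 65 bases around the start are printed with the E-box in capitals. Not printed are DDX21, PES1, RRP9 and UTP18, of which UTP18 alone fell with pargyline. Of the 8 printed, UTP20 alone did not pass with pargyline, so the choice favours genes that fell with it. Each stretch is written 5′ to 3′ on the strand of the gene.
UTP20 (chr12:101280065-101280129, plus strand): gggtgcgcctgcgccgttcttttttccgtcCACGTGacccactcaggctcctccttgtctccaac
MRTO4 (chr1:19251765-19251829, plus strand): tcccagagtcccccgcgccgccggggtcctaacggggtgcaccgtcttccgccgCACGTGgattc
IMP4 (chr2:130342857-130342921, plus strand): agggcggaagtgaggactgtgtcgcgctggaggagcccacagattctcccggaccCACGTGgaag
NOP14 (chr4:2963382-2963446, minus strand): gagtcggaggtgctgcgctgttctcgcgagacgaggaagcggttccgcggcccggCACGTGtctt
WDR43 (chr2:28894627-28894691, plus strand): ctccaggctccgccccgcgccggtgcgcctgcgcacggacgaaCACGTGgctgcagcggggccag
PNO1 (chr2:68157848-68157912, plus strand): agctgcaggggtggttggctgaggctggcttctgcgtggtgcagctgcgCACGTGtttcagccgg
GNL2 (chr1:37595913-37595977, minus strand): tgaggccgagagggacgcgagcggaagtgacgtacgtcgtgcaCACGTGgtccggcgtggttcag
FBL (chr19:39846355-39846419, minus strand): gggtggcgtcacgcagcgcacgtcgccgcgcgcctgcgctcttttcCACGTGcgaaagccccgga
The next 4 lie among the genes with the strongest or the most divergent changes and have no CACGTG in this stretch.
NPM3 (chr10:101783422-101783486, minus strand): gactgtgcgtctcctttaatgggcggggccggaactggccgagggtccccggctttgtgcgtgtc
NIP7 (chr16:69339732-69339796, plus strand): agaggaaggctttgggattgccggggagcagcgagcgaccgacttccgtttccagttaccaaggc
UTP3 (chr4:70688492-70688556, plus strand): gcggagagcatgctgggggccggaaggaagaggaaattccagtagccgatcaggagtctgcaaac
DDX10 (chr11:108665029-108665093, plus strand): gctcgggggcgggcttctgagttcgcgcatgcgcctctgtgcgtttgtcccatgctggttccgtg

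The deposited values are log2 intensities, on which a difference of 1 is 2-fold. In each comparison a gene is said to have risen or fallen where limma's adjusted p (Benjamini-Hochberg over all 11963 genes, two-sided) was under 0.05, and errors of differences are standard errors. Replicate arrays correlated at 0.998 to 0.999 across genes. All 8 mesenchymal markers, vimentin among them, lay above the median gene on every array, while all 6 leukocyte and all 6 fibroblast markers measured lay below it. Of 10 luminal breast markers, 5, including the oestrogen and progesterone receptor genes ESR1 and PGR, lay below it on every array, KRT8 and KRT18 lay above it on every array, and the others crossed it. The markers moved with treatment too. With SAHA, 6 of the 8 mesenchymal markers fell and 1 rose (median -1.04), and with both drugs 4 fell and 1 rose (median -0.61), while 1 rose with pargyline. Among all genes 23.1% fell and 23% rose with SAHA, 24% and 24.3% with both drugs, and 7.45% and 8.48% with pargyline. Of the 10 luminal markers, 4 fell and 1 rose with SAHA, 4 fell and 0 rose with both drugs, and 1 fell with pargyline. GATA3, among these falls, averaged 5.75 with both drugs and 6.27 with SAHA against 9.23 with DMSO, and ERBB2 5.06 and 5.19 against 8.28. The fall with pargyline was that of EPCAM, which averaged 7.10 against 8.42 with DMSO. The part of these shifts in the results on ribosome biogenesis was not tested. The difference between the 3′ and 5′ probe sets of actin, a sign of RNA integrity, was 0.84 to 0.94 with both drugs, 0.77 to 0.90 with SAHA and 0.62 to 0.96 with pargyline, against 0.75 to 0.82 with DMSO, and its part in the results was not tested. In total RNA of whole cultures, fewer cells of a kind and less RNA per cell cannot be told apart.

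Most of the genes were lower in cells that had received SAHA. With SAHA, 25 of 34 fell, 2 rose and 7 did not pass, where 23.1% of all genes fell and 23% rose. With both drugs, 24 fell, 1 rose and 9 did not pass, where 24% of all genes fell and 24.3% rose. With pargyline, 12 fell, 1 rose and 21 did not pass, where 7.45% of all genes fell and 8.48% rose. The pargyline count depended on the scaling, since after centring the arrays on their medians 26 of the 34 genes and 51.6% of all genes fell, and leaving out 1 array gave 8 to 16 falls. The median difference from DMSO over the 34 genes was -0.75 with SAHA, -0.67 with both drugs and -0.21 with pargyline, beside all-gene medians of 0.00, -0.01 and -0.02. The 3 comparisons share the DMSO arrays, so their counts are not independent of one another.

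Bright genes pass more easily on arrays, and 33 of the 34 genes were brighter than the median gene. Among the 5981 genes above that level, 37.9% fell and 35.3% rose with SAHA, 38.9% fell and 36.7% rose with both drugs, and 13% fell and 13.5% rose with pargyline. Falls of at least 2-fold were passed by 8 of the 34 genes with SAHA (8.75% of all genes), by 9 with both drugs (9.76%) and by 0 with pargyline (0.351%). All 3 arrays lay below all 3 DMSO arrays for 24 of the 34 with SAHA (26.1% of all genes), for 26 with both drugs (36.5%) and for 16 with pargyline (15.6%).

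**Figure D1:**
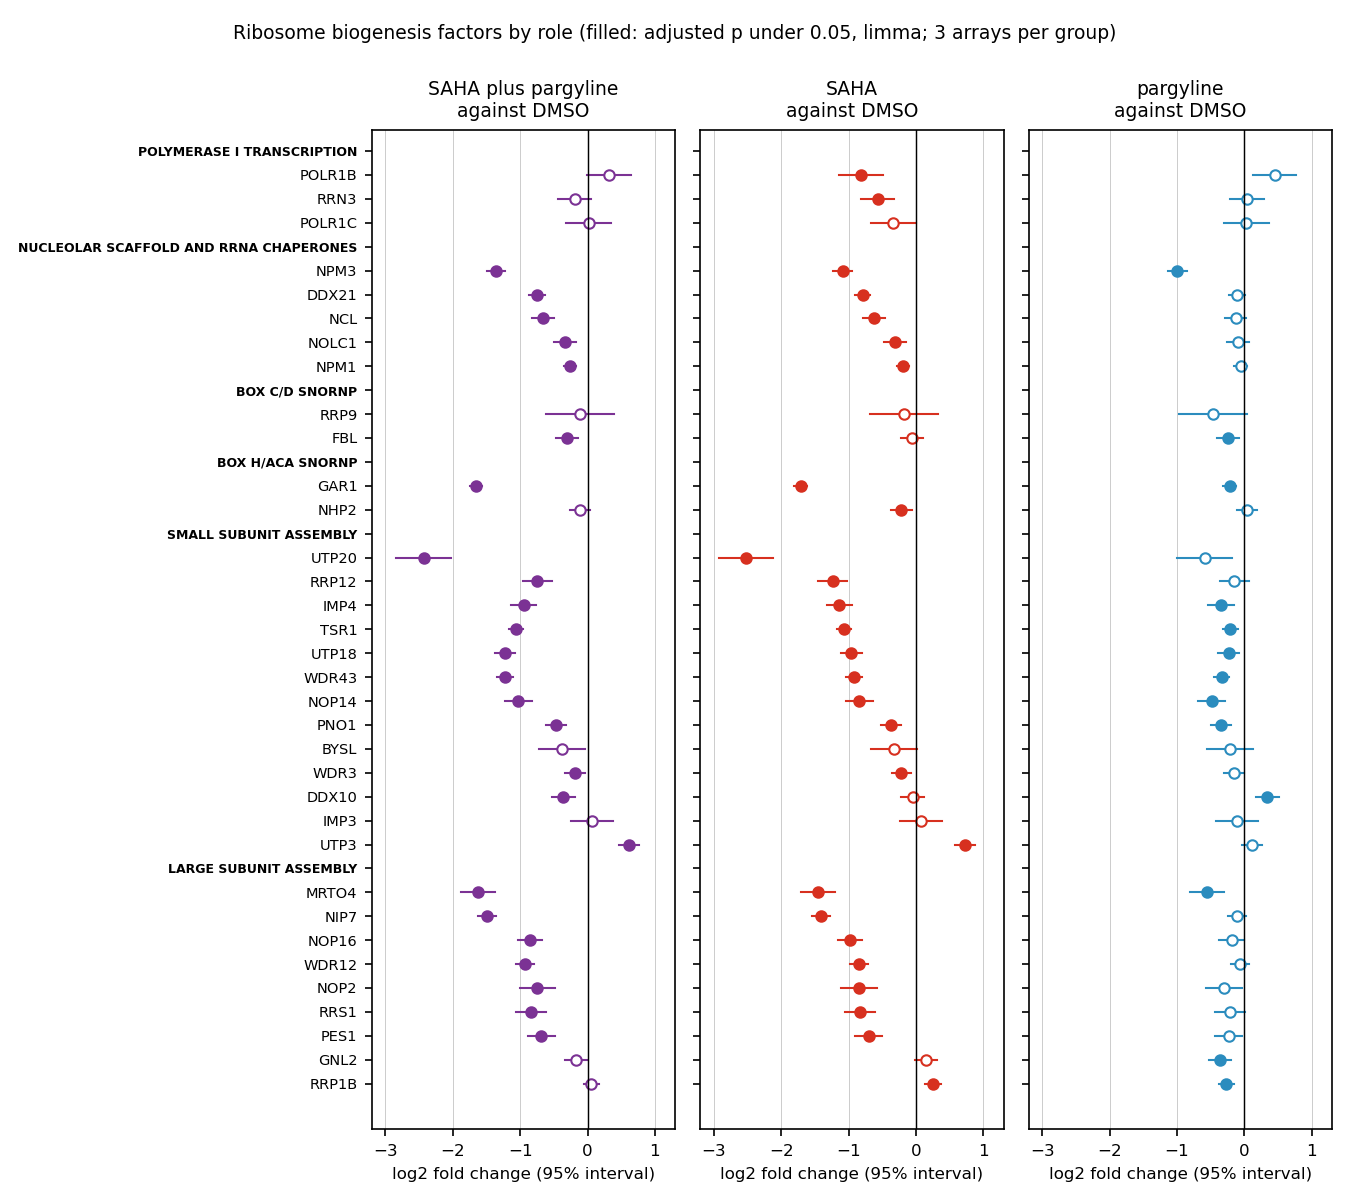
Log2 fold changes against DMSO (x axis) of the 34 measured ribosome biogenesis factors (y axis, grouped by role), with 95% intervals from limma and 3 arrays per group; filled points passed at an adjusted p under 0.05. UTP20, GAR1, MRTO4 and NIP7 sit furthest to the left with SAHA and with both drugs, NPM3 with pargyline, and UTP3 lies to the right of 0 with SAHA and with both drugs.

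The median log2 intensity of the 34 genes was 10.82, 10.77 and 10.76 on the arrays of both drugs, 11.09, 11.10 and 10.93 on the SAHA arrays and 11.38, 11.52 and 11.37 on the pargyline arrays, against 11.72, 11.70 and 11.51 on the DMSO arrays. By this median level, every array with both drugs was below every SAHA array and every SAHA array below every pargyline array. Pargyline and DMSO overlapped by 1 array of each. The order of these medians is not the change of each gene. Gene by gene, the combination differed from SAHA by a median of -0.01, with 19 genes below 0 and 15 above it. DMSO had the highest group mean for 25 of the 34 genes, pargyline for 5, SAHA for 4 and the combination for 0. The lowest group mean belonged to the combination for 15 genes, to SAHA for 14, to pargyline for 4 and to DMSO for 1, which was UTP3.

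RNA polymerase I transcription was represented by 3 genes, of which RRN3 and POLR1B fell with SAHA and none passed with pargyline or with both drugs. POLR1B, a core catalytic subunit of RNA polymerase I, had 6.69, 6.73 and 6.71 with both drugs, 5.47, 5.41 and 5.84 with SAHA, and 7.13, 6.62 and 6.77 with pargyline, against 6.39, 6.25 and 6.54 with DMSO. Its SAHA arrays were the lowest and did not overlap with any other group, a fall of 0.82 ± 0.14 on the log2 scale (limma, adjusted p = 0.000928). Cells with both drugs were 1.14 ± 0.14 above cells with SAHA alone (limma, adjusted p = 0.0014). The differences from DMSO of 0.45 ± 0.14 with pargyline and 0.32 ± 0.14 with both drugs did not pass (limma, adjusted p = 0.0687 and 0.106). POLR1B is the 1 gene of the 34 that was dimmer than the median gene, and the type of its probe set marks probes that can bind other transcripts, so its values are uncertain.

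RRN3, the initiation factor that brings polymerase I to the ribosomal DNA promoter, had 10.16, 10.07 and 9.85 with both drugs, 9.51, 9.72 and 9.72 with SAHA, and 10.07, 10.47 and 10.23 with pargyline, against 10.24, 10.22 and 10.19 with DMSO. It was lowest in all 3 SAHA arrays, by 0.57 ± 0.11 against DMSO (limma, adjusted p = 0.00164). The combination was 0.38 ± 0.11 above SAHA (limma, adjusted p = 0.0447), a call lost on leaving out any 1 of 9 of the 12 arrays (adjusted p 0.0599 to 0.140). Pseudogenes of RRN3 can share its probes. POLR1C, a subunit shared by polymerases I and III, differed from DMSO by -0.34 ± 0.15 with SAHA and passed in no comparison.

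All 5 nucleolar scaffold and chaperone genes fell with SAHA, all 5 fell with both drugs, and 1, NPM3, fell with pargyline. The shares of all genes that fell were 23.1%, 24% and 7.45% in that order. NPM3, a nucleolar member of the nucleoplasmin family of histone chaperones, had 9.42, 9.53 and 9.62 with both drugs, 9.78, 9.81 and 9.80 with SAHA, and 9.88, 9.94 and 9.85 with pargyline, against 10.97, 10.91 and 10.77 with DMSO. No array of any treatment overlapped with DMSO, and the 3 treatments did not overlap with one another. The falls were 1.36 ± 0.06 with both drugs (limma, adjusted p = 8.36e-08), 1.09 ± 0.06 with SAHA (3.94e-07) and 0.99 ± 0.06 with pargyline (2.61e-05), the largest fall of the 34 genes under pargyline. The promoter stretch of NPM3 printed above holds no CACGTG.

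NPM1 (nucleophosmin), the abundant chaperone of the granular outer layer of the nucleolus, had 15.10, 15.14 and 15.03 with both drugs, 15.13, 15.21 and 15.14 with SAHA, and 15.34, 15.27 and 15.27 with pargyline, against 15.29, 15.37 and 15.39 with DMSO. It lay below DMSO on all arrays with SAHA and with both drugs, by only 0.19 ± 0.04 (limma, adjusted p = 0.00316) and 0.26 ± 0.04 (0.000371). The other probe sets of NPM1 fell by 0.49 and 0.47 with SAHA, and 1 of them also fell with pargyline, by 0.23 (limma, adjusted p = 0.017). Near copies of NPM1 in the genome make its level uncertain. NCL (nucleolin), which binds nascent ribosomal RNA, fell by 0.62 ± 0.07 with SAHA and by 0.66 ± 0.07 with both drugs. DDX21, an RNA helicase in ribosomal RNA transcription and processing, fell by 0.79 ± 0.05 and 0.75 ± 0.05 in the same comparisons. NOLC1, a chaperone of small nucleolar ribonucleoproteins, fell by 0.32 ± 0.07 and 0.33 ± 0.07, and its other probe sets fell with SAHA by 0.58 and 0.71. With pargyline the differences of NPM1, NCL, DDX21 and NOLC1 lay between -0.13 and -0.06 on the probe sets used and did not pass. The other probe sets of NOLC1 differed more with pargyline, by -0.31 and -0.36, and did not pass (limma, adjusted p = 0.176 and 0.0901).

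The box H/ACA ribonucleoproteins turn selected uridines of ribosomal RNA into pseudouridine. GAR1, one of their core proteins, had 10.06, 10.12 and 10.16 with both drugs, 10.03, 10.03 and 10.11 with SAHA, and 11.55, 11.61 and 11.49 with pargyline, against 11.82, 11.74 and 11.75 with DMSO. The arrays with SAHA, alone or combined, formed 1 low group, the pargyline arrays lay a little under DMSO, and neither overlapped with DMSO. GAR1 fell by 1.71 ± 0.04 with SAHA (limma, adjusted p = 4.05e-09), by 1.66 ± 0.04 with both drugs (4.43e-09) and by 0.22 ± 0.04 with pargyline (0.00658). NHP2, another core protein of the same particle, had 13.80, 13.78 and 13.79 with both drugs, 13.81, 13.62 and 13.62 with SAHA, and 14.03, 13.86 and 13.93 with pargyline, against 13.97, 13.95 and 13.78 with DMSO. Its SAHA and DMSO arrays overlapped, and the fall of 0.22 ± 0.07 (limma, adjusted p = 0.0243) was lost on leaving out any 1 of 4 arrays (DMSO replicates 1 and 2, SAHA replicates 2 and 3; adjusted p 0.0836 to 0.0901).

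Box C/D ribonucleoproteins guide the methylation of ribosomal RNA. FBL (fibrillarin), their methyltransferase, had 12.97, 12.87 and 12.95 with both drugs, 13.28, 13.14 and 13.11 with SAHA, and 13.10, 12.91 and 12.95 with pargyline, against 13.33, 13.26 and 13.11 with DMSO. The arrays with both drugs lay below all SAHA and all DMSO arrays, whereas SAHA and DMSO overlapped. FBL fell by 0.30 ± 0.07 with both drugs (limma, adjusted p = 0.00541) and by 0.24 ± 0.07 with pargyline (0.0473), and differed by -0.06 ± 0.07 with SAHA (0.683). The pargyline call was lost on leaving out any 1 of 9 of the 12 arrays (adjusted p 0.0542 to 0.165). RRP9, a protein of the U3 particle, passed in no comparison, and its standard error of 0.22 was the widest of the 34 genes.

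Among the 13 small subunit assembly factors, 9 fell and 1 rose with SAHA, 10 fell and 1 rose with both drugs, and 6 fell and 1 rose with pargyline. Among all genes 23.1% fell and 23% rose with SAHA, 24% and 24.3% with both drugs, and 7.45% and 8.48% with pargyline. UTP20, a large scaffold protein of the small subunit processome, had 8.50, 8.76 and 9.05 with both drugs, 8.48, 8.51 and 9.04 with SAHA, and 10.63, 10.38 and 10.83 with pargyline, against 11.16, 11.18 and 11.27 with DMSO. Both SAHA-containing groups lay far below the other 6 arrays, and every pargyline array lay below every DMSO array. UTP20 fell 5.75-fold with SAHA (-2.52 ± 0.18, limma, adjusted p = 2.18e-06) and fell by 2.43 ± 0.18 with both drugs (2.31e-06), the largest fall of the 34 genes in either comparison. Its difference of -0.59 ± 0.18 with pargyline did not pass (limma, adjusted p = 0.0577).

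RRP12, which helps export the small subunit, had 9.66, 9.92 and 9.85 with both drugs, 9.39, 9.41 and 9.15 with SAHA, and 10.37, 10.37 and 10.47 with pargyline, against 10.59, 10.67 and 10.40 with DMSO. The combination lay between SAHA and the other groups without overlap. RRP12 fell by 1.24 ± 0.10 with SAHA (limma, adjusted p = 3.41e-06) and by 0.75 ± 0.10 with both drugs (8.97e-05), and the combination was 0.49 ± 0.10 above SAHA alone (0.00774). That last call did not pass with the mean of all its probe sets, which include a dim pair (0.17, limma, adjusted p = 0.161). NOP14, an early small subunit factor, had 10.07, 9.82 and 10.05 with both drugs, 10.29, 10.07 and 10.12 with SAHA, and 10.55, 10.54 and 10.46 with pargyline, against 11.10, 11.06 and 10.86 with DMSO. All 9 treated arrays lay below DMSO, with falls of 1.03 ± 0.09 with both drugs, 0.84 ± 0.09 with SAHA and 0.49 ± 0.09 with pargyline (limma, adjusted p = 5.53e-06, 2.49e-05 and 0.00543).

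IMP4, UTP18, WDR43, TSR1 and PNO1 passed, like NOP14, against DMSO under each treatment. IMP4, which joins the U3 particle to the precursor, fell by 0.95 ± 0.09 with both drugs, 1.14 ± 0.09 with SAHA and 0.35 ± 0.09 with pargyline. UTP18 and WDR43, WD-repeat proteins of the processome, fell by 1.22 ± 0.07 and 1.22 ± 0.05 with both drugs, by 0.96 ± 0.07 and 0.92 ± 0.05 with SAHA, and by 0.23 ± 0.07 and 0.34 ± 0.05 with pargyline. TSR1, a GTPase-like factor of the late small subunit, fell by 1.06 ± 0.05, 1.07 ± 0.05 and 0.21 ± 0.05 with both drugs, SAHA and pargyline. PNO1, which binds the same late particle near the end of its RNA, fell by 0.46 ± 0.07, 0.37 ± 0.07 and 0.35 ± 0.07. The pargyline calls of UTP18, IMP4 and TSR1 were lost on leaving out any 1 of 9, 3 and 3 arrays (adjusted p up to 0.158), while those of WDR43, NOP14 and PNO1 held in all 12 such fits. With the mean of all its probe sets, however, PNO1 did not pass with pargyline (-0.27, limma, adjusted p = 0.0524). Its further probe set differed by -0.16 with SAHA and -0.19 with pargyline, neither of which passed, and those of TSR1 fell with SAHA by 0.48 and 1.20.

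The remaining small subunit genes did not share that pattern. UTP3, a processome protein that is the human Sas10, had 12.44, 12.41 and 12.42 with both drugs, 12.50, 12.61 and 12.51 with SAHA, and 12.04, 11.96 and 11.79 with pargyline, against 11.91, 11.80 and 11.72 with DMSO. Its SAHA-containing arrays were all above the other 6, and it rose by 0.73 ± 0.07 with SAHA (limma, adjusted p = 1.1e-05) and by 0.61 ± 0.07 with both drugs (3.05e-05). DDX10, an RNA helicase, had 10.65, 10.73 and 10.77 with both drugs, 11.07, 11.08 and 10.94 with SAHA, and 11.40, 11.50 and 11.37 with pargyline, against 11.15, 11.19 and 10.90 with DMSO. Pargyline arrays were the highest and combination arrays the lowest, each without overlap with any other group. DDX10 rose by 0.34 ± 0.08 with pargyline (limma, adjusted p = 0.0149), fell by 0.36 ± 0.08 with both drugs (0.00262) and differed by -0.05 ± 0.08 with SAHA (0.761). With each array centred on its own median, the rise under pargyline was 0.21 and did not pass (limma, adjusted p = 0.0550).

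WDR3, a processome WD-repeat protein, had 12.55, 12.64 and 12.73 with both drugs, 12.62, 12.53 and 12.67 with SAHA, and 12.76, 12.65 and 12.60 with pargyline, against 12.81, 12.91 and 12.76 with DMSO. All SAHA-containing arrays lay below DMSO, but the falls were small, 0.22 ± 0.06 with SAHA (limma, adjusted p = 0.0181) and 0.19 ± 0.06 with both drugs (0.0341). The fall with both drugs was lost on leaving out any 1 of 4 arrays (DMSO replicates 1 and 2, replicates 1 and 2 of the combination; adjusted p 0.0638 to 0.130), and that with SAHA on leaving out DMSO or SAHA replicate 2 (0.0730 and 0.0721). IMP3, a partner of IMP4 in the U3 particle, and BYSL (bystin), a factor of late small subunit maturation, passed in no comparison, with differences from DMSO of -0.11 to 0.07 and -0.37 to -0.21.

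**Figure D2:**
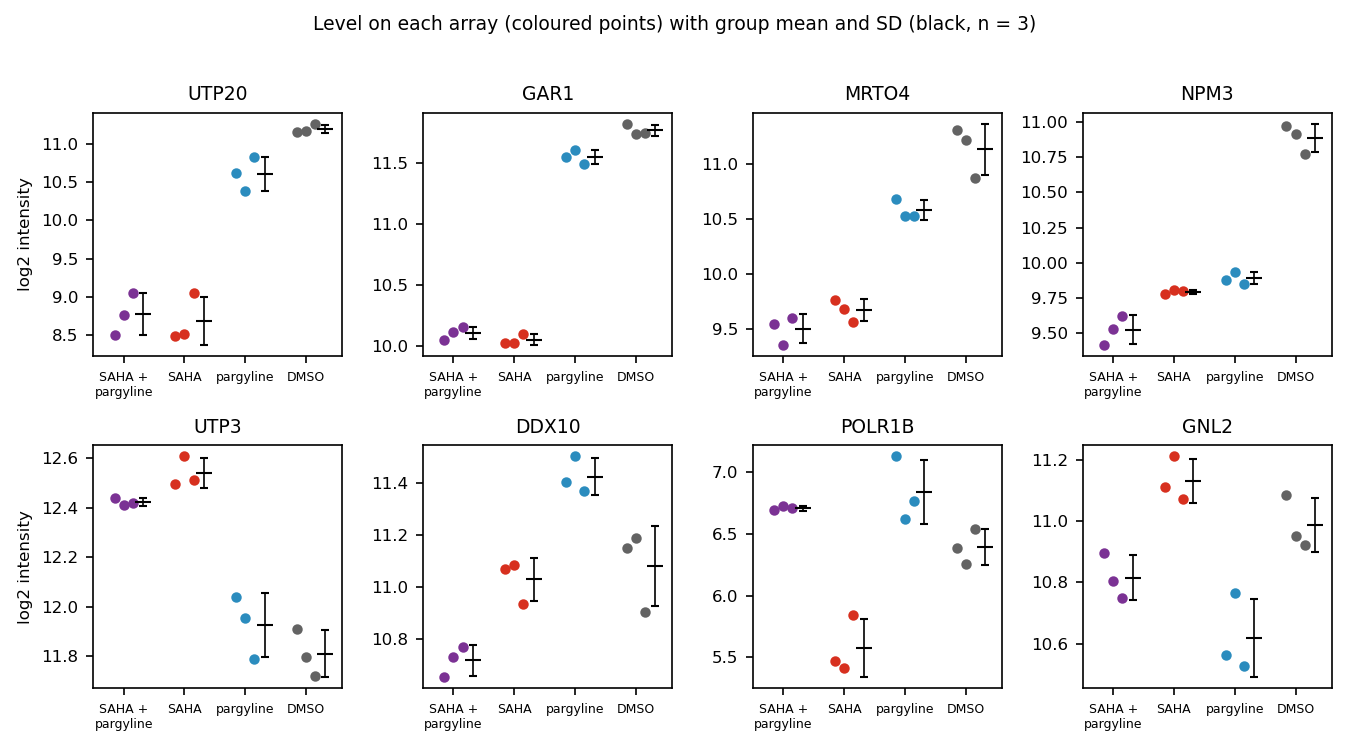
Log2 intensity (y axis, its own range in each panel) of 8 ribosome biogenesis factors on each array, with 3 points per group and the group mean and SD in black. UTP20, GAR1 and MRTO4 are low in both groups with SAHA, NPM3 is low in all treated groups, UTP3 is high in both groups with SAHA, DDX10 is highest with pargyline and lowest with both drugs, POLR1B is lowest with SAHA alone and GNL2 has its lowest mean with pargyline alone.

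Of the 9 large subunit assembly factors, 7 fell and 1 rose with SAHA, 7 fell and 0 rose with both drugs, and 3 fell and 0 rose with pargyline. Among all genes 23.1% fell and 23% rose with SAHA, 24% and 24.3% with both drugs, and 7.45% and 8.48% with pargyline. MRTO4, which holds the place of the stalk protein P0 in the immature large subunit, had 9.55, 9.35 and 9.60 with both drugs, 9.76, 9.68 and 9.56 with SAHA, and 10.68, 10.53 and 10.52 with pargyline, against 11.30, 11.21 and 10.87 with DMSO. All 9 treated arrays lay below DMSO and the pargyline arrays lay between. MRTO4 fell by 1.63 ± 0.11 with both drugs (limma, adjusted p = 1.46e-06), by 1.46 ± 0.11 with SAHA (3.61e-06) and by 0.55 ± 0.11 with pargyline (0.00998). NIP7, a precursor processing factor, fell by 1.50 ± 0.06 with both drugs and by 1.40 ± 0.06 with SAHA, beside a difference of -0.12 ± 0.06 with pargyline that did not pass.

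NOP16 had 11.96, 12.04 and 12.15 with both drugs, 11.99, 11.97 and 11.79 with SAHA, and 12.78, 12.71 and 12.63 with pargyline, against 12.95, 12.99 and 12.76 with DMSO. This large subunit factor was low on all 6 arrays with SAHA, by 0.98 ± 0.08 with SAHA alone and 0.85 ± 0.08 with both drugs, and its pargyline and DMSO arrays overlapped. One further probe set of NOP16 fell by 1.16 with SAHA, while its dim pair, at about 1.87 and 1.97, did not pass. PES1 and WDR12, partners in the PeBoW complex, fell by 0.70 ± 0.09 and 0.85 ± 0.06 with SAHA and by 0.69 ± 0.09 and 0.93 ± 0.06 with both drugs. NOP2, a methyltransferase of large subunit RNA, and RRS1, which helps load the 5S particle, fell by 0.85 ± 0.12 and 0.83 ± 0.10 with SAHA and by 0.74 ± 0.12 and 0.84 ± 0.10 with both drugs. None of these 5 passed with pargyline, where their differences lay between -0.30 and -0.06.

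GNL2 and RRP1B set themselves apart from the other large subunit genes. GNL2, a GTPase of late nucleolar large subunit particles, had 10.90, 10.80 and 10.75 with both drugs, 11.11, 11.21 and 11.07 with SAHA, and 10.56, 10.76 and 10.53 with pargyline, against 11.09, 10.95 and 10.92 with DMSO. Pargyline arrays were all below DMSO and SAHA arrays overlapped with it, so that GNL2 fell by 0.37 ± 0.07 with pargyline (limma, adjusted p = 0.00843) and differed by 0.15 ± 0.07 with SAHA (0.144). RRP1B, a nucleolar protein that binds the phosphatase PP1, had 12.32, 12.13 and 12.22 with both drugs, 12.40, 12.46 and 12.39 with SAHA, and 11.85, 11.97 and 11.87 with pargyline, against 12.17, 12.20 and 12.14 with DMSO. Its SAHA arrays lay above DMSO, its pargyline arrays below, and the combination overlapped with DMSO. RRP1B rose by 0.25 ± 0.05 with SAHA (limma, adjusted p = 0.00226), fell by 0.27 ± 0.05 with pargyline (0.007) and differed by 0.06 ± 0.05 with both drugs (0.42). Centring each array on its median took the rise with SAHA to 0.15 (limma, adjusted p = 0.0535).

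Setting the combination against each drug alone asks what the other drug added. Against pargyline, 21 of 34 genes fell and 3 rose, where 23.6% of all genes fell and 23.9% rose, with a median of -0.45. UTP20 fell by 1.85 ± 0.18, GAR1 by 1.44 ± 0.04 and NIP7 by 1.38 ± 0.06 in that comparison, and UTP3, RRP1B and GNL2 rose by 0.50 ± 0.07, 0.32 ± 0.05 and 0.20 ± 0.07. The rise of GNL2 (limma, adjusted p = 0.0486) was lost on leaving out any 1 of 9 of the 12 arrays (adjusted p 0.0516 to 0.162) and with array centring (0.139). Against SAHA, 7 genes fell and 3 rose, where 8.71% of all genes fell and 7.88% rose, with a median of -0.01. The 7 were GNL2 (-0.32 ± 0.07), DDX10 (-0.31 ± 0.08), WDR43 (-0.30 ± 0.05), NPM3 (-0.27 ± 0.06), UTP18 (-0.26 ± 0.07), FBL (-0.24 ± 0.07) and RRP1B (-0.19 ± 0.05). Of these, FBL was lost on leaving out any 1 of 9 of the 12 arrays, RRP1B of 5, UTP18 and DDX10 of 4 each and GNL2 of 2 (limma, adjusted p up to 0.159), while WDR43 and NPM3 held in all 12 such fits. The 3 that rose were POLR1B, RRP12 and RRN3, as given above. Left without replicate 2 of the combination or replicate 2 of SAHA, 2 genes fell against SAHA, without SAHA replicate 1, 3 fell, and without replicate 3 of the combination, 4 fell.

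The interaction (the effect of both drugs together less the effects of each drug added up) passed for 5 of 34 genes, with 1 below 0 and 4 above it, where 2.44% of all genes passed below 0 and 1.28% above. It was 0.72 ± 0.08 for NPM3 (limma, adjusted p = 0.00368), so that the combination fell short of the sum of 2 falls of about 1 log2 unit each. RRP12 (0.64 ± 0.13, adjusted p = 0.0339), IMP4 (0.54 ± 0.12, 0.043) and GAR1 (0.27 ± 0.06, 0.035) also lay above 0, and DDX10 lay below it at -0.65 ± 0.11 (0.0148). Positive interactions came with falls in both single-drug comparisons for NPM3, IMP4 and GAR1, while RRP12 did not pass with pargyline. NPM3 and DDX10 passed in all 12 fits that left out 1 array, and RRP12, IMP4 and GAR1 in 2, 1 and 3 of them. The median interaction over the 34 genes was 0.20, beside 0.00 over all genes.

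Splitting the 30 genes with a promoter window by CACGTG gave the values that follow. Of the 15 that hold it, 12 fell with both drugs, 11 with SAHA and 9 with pargyline, with medians of -0.75, -0.84 and -0.34. Of the 15 that do not, 9 fell with both drugs, 11 with SAHA and 2 with pargyline, NPM3 and TSR1, with medians of -0.26, -0.57 and -0.06. The shares of all genes that fell were 24%, 23.1% and 7.45% in the same order. Over the settings tried, 6 to 14 of the 15 with the E-box fell with pargyline and 1 to 8 of the 15 without it. The highest counts, 14 and 8, came with array centring, where 51.6% of all genes fell with pargyline. The genes were chosen with earlier results known, and the difference between the sets was not tested. UTP20, MRTO4, IMP4, NOP14, WDR43 and PNO1, whose sequences stand above, belong to the first set, and so do GNL2 and FBL, which did not pass with SAHA.

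**Figure D3:**
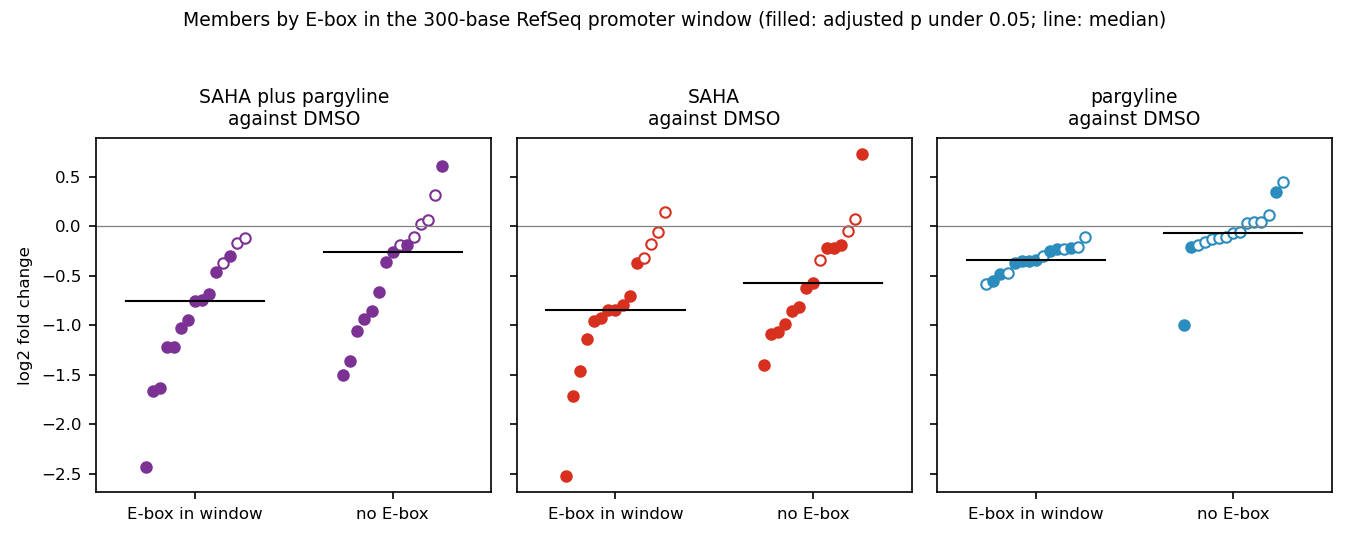
Log2 fold change against DMSO (y axis) of the 30 genes with a RefSeq promoter window. Genes are split by whether any of their windows holds the E-box (x axis, 15 genes each). Each gene is 1 point, filled where it passed, and the median is a black line. With pargyline the medians are -0.34 with the E-box and -0.06 without it, and with SAHA -0.84 and -0.57.

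MYC itself rose in the cells with SAHA. It had 12.01, 12.46 and 12.84 with both drugs, 12.92, 12.91 and 13.36 with SAHA, and 11.78, 11.94 and 11.66 with pargyline, against 11.37, 11.85 and 11.42 with DMSO. MYC lay above DMSO on all arrays with SAHA and with both drugs, rising by 1.51 ± 0.22 (limma, adjusted p = 0.000231) and 0.89 ± 0.22 (0.00635), and overlapped with DMSO under pargyline (0.25 ± 0.22, 0.545). Of the 8 measured genes of the MYC network, 4 rose and 0 fell with SAHA, 4 rose and 1 fell with both drugs, and 2 rose and 2 fell with pargyline. Among all genes 23% rose and 23.1% fell with SAHA, 24.3% and 24% with both drugs, and 8.48% and 7.45% with pargyline. The 1 fall with both drugs was that of MYCN, at 2.51 against 2.60 with DMSO. These levels are near the first quartile of all genes (2.40), so that fall is uncertain. MXI1, a MAX partner that opposes MYC, rose by 2.10 ± 0.14 with both drugs, 1.86 ± 0.14 with SAHA and 1.42 ± 0.14 with pargyline. MNT, another such partner, rose by 0.50 ± 0.12 with pargyline, although its pargyline and DMSO arrays overlapped. MXD3 fell by 0.74 ± 0.15 with pargyline.

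Other genes of ribosome production, from lists that hold none of the 43, were counted in the same way. Of 107 measured, 63 fell (58.9%) and 10 rose (9.35%) with SAHA, where 23.1% of all genes fell and 23% rose. With both drugs 60 fell (56.1%) and 9 rose (8.41%), where 24% of all genes fell and 24.3% rose. With pargyline 31 fell (29%) and 0 rose, where 7.45% of all genes fell and 8.48% rose. Among genes above the median level, 37.9%, 38.9% and 13% fell in that order. The medians of the 107 were -0.38, -0.45 and -0.21. Among 13 further polymerase I genes, 8 fell with SAHA (61.5%), 7 with both drugs (53.8%) and 4 with pargyline (30.8%). UBTF, which organises active ribosomal DNA for polymerase I, had 4.53, 4.93 and 4.71 with both drugs, 5.45, 5.37 and 5.45 with SAHA, and 7.63, 7.57 and 7.57 with pargyline, against 7.89, 7.80 and 7.74 with DMSO. It fell by 3.09 ± 0.09 with both drugs and fell by 2.39 ± 0.09 with SAHA. POLR1G, a further polymerase I subunit, fell by 0.80 ± 0.12 with pargyline.

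Of 32 further small subunit genes, 20 fell with SAHA (62.5%), 19 with both drugs (59.4%) and 7 with pargyline (21.9%). Of 42 further large subunit genes, 26 (61.9%), 25 (59.5%) and 15 (35.7%) fell in the same order, beside 23.1%, 24% and 7.45% of all genes. NOL12, a nucleolar RNA-binding protein, had 5.60, 5.93 and 6.01 with both drugs, 6.38, 6.14 and 6.36 with SAHA, and 8.52, 8.26 and 8.25 with pargyline, against 8.99, 8.88 and 8.66 with DMSO, and fell by 3.00 ± 0.13 with both drugs and 2.55 ± 0.13 with SAHA. The exosome, which trims ribosomal RNA ends, had 6 of 11 genes fall (54.5%) and 2 rise (18.2%) with SAHA. With both drugs 5 of its genes fell (45.5%) and 2 rose (18.2%), and with pargyline 3 fell (27.3%) and 0 rose. Of 9 assembly factors of small nucleolar ribonucleoproteins, 3 fell (33.3%) and 2 rose (22.2%) with SAHA, beside 23.1% and 23% of all genes. With both drugs 4 of the 9 fell (44.4%) and 2 rose (22.2%), beside 24% and 24.3% of all genes. With pargyline 2 of the 9 fell (22.2%) and 0 rose, beside 7.45% and 8.48%. Of 52 cytosolic ribosomal proteins, 10 fell (19.2%) and 3 rose (5.77%) with SAHA, beside 23.1% and 23% of all genes. With both drugs 7 fell (13.5%) and 4 rose (7.69%), beside 24% and 24.3% of all genes. With pargyline 0 passed in limma, where 1 had an unadjusted p under 0.05. All 3 arrays lay below all 3 DMSO arrays for 24 of the 52 with SAHA, a larger share than the 26.1% of all genes. With both drugs this held for 22 of the 52, a larger share than the 36.5% of all genes. With pargyline it held for 0 of the 52, where it held for 15.6% of all genes. Differences below 0 numbered 39 with SAHA, 35 with both drugs and 30 with pargyline. The medians of the 52 were -0.06, -0.04 and -0.01 in that order.

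**Figure D4:**
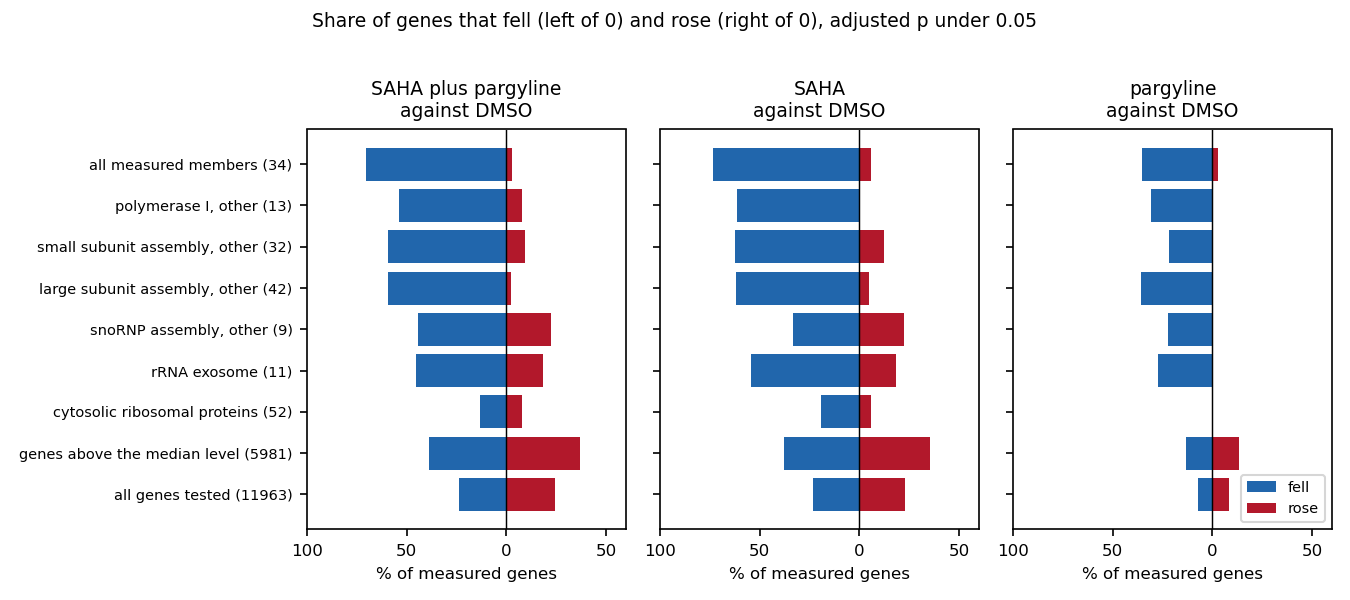
Percentage of measured genes that fell (bars left of 0) and rose (bars right of 0) at an adjusted p under 0.05 in limma, for the 34 ribosome biogenesis factors, other lists of the pathway, bright genes and all genes (y axis, number measured in brackets), in each comparison with DMSO. The 34 factors fell in 70.6%, 73.5% and 35.3% with both drugs, SAHA and pargyline, and the ribosomal proteins fell in 13.5%, 19.2% and 0%.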

How the data were processed

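Gene expression was measured on 12 Affymetrix arrays, 3 biological replicates in each of 4 groups. The deposited log2 intensities were produced by the authors using RMA, per the submitters' processing notes; the software version and whether all arrays were normalized together are not given in the sources used here. The 22277 probe sets comprise 62 controls, 19064 with 1 listed gene, 1043 with several and 2108 with none. Symbols were checked by gene ID against RefSeq (GRCh38.p14), which matched 19052 probe sets. One probe set per gene, with the highest mean, gave 11963 genes.

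A model with a mean per group was fitted to all 12 arrays in limma 3.58.1 (R 4.3.3; lmFit, eBayes) with 8 residual degrees of freedom, and the median standard error of a difference was 0.077. There were 6 comparisons, tested two-sided with Benjamini-Hochberg adjustment over all genes. The number of arrays limits the precision. The labels call the replicates biological without saying how the cultures were kept apart, so p-values measure the spread between these samples. The procedure was tested on simulated data. Alternatives were quantile normalization, centring on array medians, leaving out dim genes, the mean of all probe sets, array weights, a block for the replicate number, a prior that was trended and robust, a fit of only those groups that were compared, a threshold of 0.01 and each array left out in turn. The members and the gene lists were chosen with earlier results of these data known. Values on each array are given for members that passed and were among the 3 largest falls or 2 largest rises against DMSO, rose in one comparison and fell in another, had the largest interaction each way, or were the brightest of their role; of other lists, the 2 largest changes each way against DMSO and MYC were named. UTP20, MRTO4, IMP4, NOP14, WDR43, PNO1, GNL2, FBL, NPM3, NIP7, UTP3 and DDX10 were chosen for printed sequences after their values were seen. Probe positions were not used here.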

Additional observations from a re-analysis of the deposited data

Results flagged for a closer look

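The effect of 1 drug differed with the presence of the other for 5 of the 34 genes, by the interaction term of limma. NPM3 stood 0.72 above the sum of the single-drug effects (0.7236, adjusted p = 0.00368), and the value was 0.67 to 0.78 and passed in all 12 fits that left out 1 array. DDX10 stood below the sum (-0.6522, adjusted p = 0.0148), at -0.71 to -0.56 and passing in all 12 such fits. RRP12 (0.6419, adjusted p = 0.0339), IMP4 (0.5361, 0.043) and GAR1 (0.2744, 0.035) passed in 2, 1 and 3 of the 12 fits, with adjusted p up to 0.0838, 0.106 and 0.0862.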

How the results depend on the processing

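Of 104 calls of the 34 genes over 6 comparisons, 79 held under every alternative run for them and 0 reversed. The 2 calls of POLR1B could not be run without dim genes, nor the interaction calls on the compared groups alone. Leaving out each array in turn gave 23 to 27 falls and 2 to 2 rises with SAHA, 23 to 25 and 1 to 1 with both drugs, 8 to 16 and 1 to 2 with pargyline, 2 to 7 and 2 to 3 for both drugs against SAHA, 20 to 21 and 2 to 3 for both drugs against pargyline, and 1 to 1 below and 1 to 3 above 0 for the interaction. Centring each array on its median moved the all-gene median to -0.10 with SAHA, -0.15 with pargyline and -0.17 for the combination, so that 34% of all genes fell and 19.9% rose with SAHA, 51.6% and 7.29% with pargyline, and 62.9% and 20.9% with both drugs. Of the 34 genes, 27 then fell and 1 rose with SAHA, 26 and 0 with pargyline, and 28 and 1 with both drugs. The median of the 34 minus that of all genes was -0.75 with SAHA, -0.19 with pargyline and -0.66 for the combination, a difference that centring cannot change because it shifts all genes of an array alike. Array weights gave 19 falls and 2 rises with pargyline, 2 rises with both drugs and 9 interactions above 0. Of all genes, 12.3% then fell and 11.3% rose with pargyline, 27% rose with both drugs and 3.73% had interactions above 0. Fitting the compared groups alone gave 0 rises with pargyline, 2 rises with both drugs and 4 falls for both drugs against SAHA. The all-gene shares for these were 8.37%, 23.8% and 5.13%. The mean of all probe sets gave 2 rises with both drugs, where 24.4% of all genes rose. An adjusted p under 0.01 gave 0 rises with pargyline, 1 fall for both drugs against SAHA, and 0 interactions below and 1 above 0. The all-gene shares for these were 4.95%, 4.17%, 0.535% and 0.234%. The cause of these changes was not tested.

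Equally numbered replicates were not treated as paired in the main fit, and the labels do not say whether they share a culture date. Deviations from the group means correlated at 0.08 to 0.53 (median 0.14) over 18 same-number pairs, 13 of them over 0.1. Over 36 different-number pairs the range was -0.52 to 0.25 (median -0.07), with 2 over 0.1. Averaged by replicate number over the other groups, the correlations of all 12 arrays were highest with their own number. Arrays of equal number were thus more alike, which the main fit did not model. With the replicate block, 27 of the 34 genes fell and 2 rose with SAHA, 15 and 1 with pargyline and 24 and 1 with both drugs. Of all genes, 24% then fell and 23.9% rose with SAHA, 9.37% and 10.1% with pargyline, and 26.8% and 25.4% with both drugs. Without the block the counts of the 34 were 25 and 2, 12 and 1, and 24 and 1 in the same order. The all-gene shares were then 23.1% and 23%, 7.45% and 8.48%, and 24% and 24.3%. The block lost the calls of WDR3 with both drugs (adjusted p = 0.0613) and of GAR1 for the interaction (0.0529), and no other.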
